A study of Mus musculus with 16 samples.

Results

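Olfactory receptor gene regions were taken as every gene of chromosomes 1 to 19 whose symbol starts with Olfr, with 5 kb on each side. There were 1103 such rows among 24483 autosomal genes of the deposited expression table, on 17 chromosomes, and 7 further olfactory receptor genes on the X chromosome were not included. GENCODE listed 1085 of them as protein coding and 8 as pseudogenes. Oocytes of wild-type C57BL/6 mice (C57BL/6Babr in the study's methods) had been sorted by diameter into size classes, with 2 libraries (A and B) per class and method. RNA-seq covered oocytes of 10–30 μm from mice of post-natal days 5–7, of 40–45 μm from days 7–12, of 50–55 μm from days 9–14, of 60–65 μm from days 13–16, and 1 library of germinal vesicle (GV) oocytes, the fully grown stage, from day 20. Reduced representation bisulphite sequencing (RRBS), which reads the ends of MspI fragments, covered the 3 classes from 40–45 μm upwards, and post-bisulphite adaptor tagging (PBAT), which samples the whole genome, covered 60–65 μm oocytes in 1 library without a replicate. Each library was made from a pool of oocytes that had been washed to remove somatic cells, and size class cannot be told apart from the age of the mice. The labels do not say whether A and B came from separate animals, so p-values measure only the spread between these libraries.

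Olfactory receptors are G protein-coupled receptors of olfactory sensory neurons, which detect odorants at the cilia. Each neuron transcribes a single member from a single allele, while the other members are kept in closed chromatin. The genes have a coding sequence without introns, lie in large tandem arrays made by duplication, and fall into an older class I, held in a locus around the beta-globin genes, and a class II that is spread over many chromosomes. The oocyte genome starts almost free of methylation and acquires it during growth, mostly over transcribed gene bodies.

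The sequences of the receptor genes set what could be measured, since methylation was read only at CpG sites, shown here in capitals. In the RefSeq promoter sequences of GRCm38.p6 (250 bases before and 50 after the annotated start), 948 promoters of the family held a median of 1 CpG and 316 (33.3%) held none, against a median of 7 and 5.43% without any over all 32851 promoters. At least 10 CpGs were found in 2 (0.211%) promoters of the family and in 43.5% of all promoters. The 250 bases upstream of the start are shown, on the minus strand, for 3 receptors. Olfr976 (chr9:39961045-39961294) had the highest RNA level, and the RNA of Olfr206 (chr16:59345727-59345976) rose during growth. Olfr1423 (chr19:12036741-12036990) was the most methylated region among members with at least 100 calls.
Olfr976: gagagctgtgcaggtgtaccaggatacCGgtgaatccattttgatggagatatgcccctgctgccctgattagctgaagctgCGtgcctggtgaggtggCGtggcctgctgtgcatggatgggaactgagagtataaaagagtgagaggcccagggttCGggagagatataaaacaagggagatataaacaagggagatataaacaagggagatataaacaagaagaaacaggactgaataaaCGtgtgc
Olfr206: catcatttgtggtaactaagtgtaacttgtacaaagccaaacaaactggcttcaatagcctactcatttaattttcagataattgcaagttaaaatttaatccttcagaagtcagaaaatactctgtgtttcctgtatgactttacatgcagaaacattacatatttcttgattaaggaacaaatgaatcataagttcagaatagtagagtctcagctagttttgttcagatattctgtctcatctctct
Olfr1423: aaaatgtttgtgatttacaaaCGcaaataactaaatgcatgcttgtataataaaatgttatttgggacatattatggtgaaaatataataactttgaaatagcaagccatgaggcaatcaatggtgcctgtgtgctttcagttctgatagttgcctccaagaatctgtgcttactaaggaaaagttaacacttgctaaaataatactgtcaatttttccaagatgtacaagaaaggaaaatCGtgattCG
The stretch before Olfr976 held 5 CpGs, with 5 of 38 PBAT calls methylated, and its start in RefSeq lay upstream of the row in the expression table. The stretch before Olfr206 held no CpG. The stretch before Olfr1423 held 3 CpGs and only 4 calls, of which 1 was methylated.

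RRBS reached the family only at a few short stretches. Among CpGs with at least 5 reads in all 6 RRBS libraries, the short stretch with the most calls in a region is given (GRCm38, gene direction). Other CpGs of the region with such reads are left out. Per library, the region of Olfr1419 had 11 to 19 positions with at least 5 reads and that of Olfr70 had 4 to 7. Stretches are shown for regions whose methylation rose between size classes, Olfr1419 (chr19:11870398-11870441, minus strand, in the coding sequence of the gene), Olfr474 (chr7:107957349-107957399, plus strand, intergenic and 2.73 kb from the gene start) and Olfr70 (chr4:43690216-43690255, minus strand, in a coding exon of its neighbour Tmem8b). They are also shown for others with high or low methylation throughout, Olfr101 (chr17:37297014-37297064, minus strand, intergenic), Olfr1314 (chr2:112089157-112089202, minus strand, intergenic and wholly in repeat-masked sequence) and Olfr279 (chr15:98493494-98493538, plus strand, before the gene as the table has it).
Olfr1419: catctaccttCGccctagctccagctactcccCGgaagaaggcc
Olfr474: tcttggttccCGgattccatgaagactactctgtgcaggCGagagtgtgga
Olfr70: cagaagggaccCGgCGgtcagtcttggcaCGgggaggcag
Olfr101: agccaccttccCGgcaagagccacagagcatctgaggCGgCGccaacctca
Olfr1314: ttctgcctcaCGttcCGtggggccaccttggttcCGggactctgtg
Olfr279: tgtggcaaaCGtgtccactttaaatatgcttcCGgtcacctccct
Each of these held 2 or 3 CpGs. Over the 24 regions of the family that entered the RRBS test, these stretches with the most calls held 1 to 7 positions (median 2). Of them, 16 were repeat-masked over most of their length and 3 lay within the receptor gene.

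In 60–65 μm oocytes, olfactory receptor regions were weakly methylated. With methylated and unmethylated PBAT calls pooled over a region and at least 20 calls required, 1102 of 1103 regions could be measured, with a median of 134 calls and a median width of 11 percentage points for the 95% Wilson interval of a region. Such intervals cover counting error only. Olfr1506, with 12 calls, was not measured, and Olfr1283 (72.7% of 22 calls) and Olfr729 (25 calls) lay just inside the minimum. The median region was 12.3% methylated (quartiles 8.45% and 18.3%). Under 5% methylation were 84 regions (7.62%, against 6.78% of all 24413 measured gene regions), at 25% or more 159 (14.4%, against 32.7%), and at 50% or more 44 (3.99%, against 4.9%). Most of the family lay between 5% and 25%. Of the 159 regions at 25% or more, 107 had an interval wholly at or above 25%, and of the 943 under it, 766 had an interval wholly below. Olfr1154 and Olfr585 (both 24.9%) lay just under that limit and Olfr1287 and Olfr355 (both 25%) just at it.

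Genes that are not receptors gave the frame for these values. Other genes silent in oocytes (under 0.1 RPKM, that is, reads per kilobase scaled to the reads of the library, in all 9 RNA columns) had a median of 8.5% over 9900 regions and the other genes above that level 24.8% over 13090. Vomeronasal receptor genes, the other large chemoreceptor family, had a median of 15.8% over 321 regions, with 63 (19.6%) at 25% or more. Chromosome by chromosome, over the 15 chromosomes with enough regions, the median of the receptor regions was above that of other silent genes by 3.01 points (SD over chromosomes 2.6), higher on 14 and lower on 1, and lower than that of the other genes by 12.8 points (SD 2.7) on all 15. It was below that of vomeronasal receptor genes on each of 5 chromosomes, by 4.17 points (SD 1.42), and 0.3 points (SD 2.98) from that of gene-free windows of 11 kb, higher on 8 and lower on 7. With 1 PBAT library these differences have no replicate error and were not tested. The families differed in sequence as well. Receptor regions held a median of 4.16 CpGs per kb and 37.3% GC, close to the 4.17 and 38% of vomeronasal receptor regions and far from the 11.1 and 45.3% of other silent genes, and the part of this difference in the methylation levels was not tested.

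**Figure D1:**
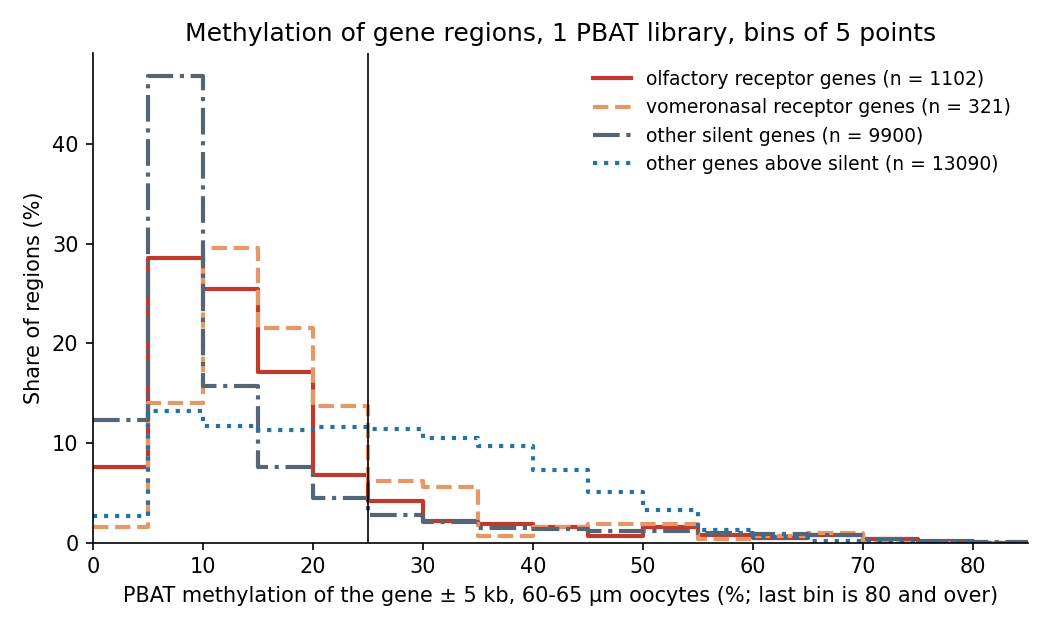
Share of gene regions (%, vertical axis) by PBAT methylation level (%, horizontal axis, bins of 5 points) for olfactory receptor genes, vomeronasal receptor genes, other silent genes and other genes above silent, in 1 library of 60–65 μm oocytes. The vertical line marks 25%, which 14.4% of olfactory receptor regions and 49.4% of other genes above silent reached.

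Methylation was compared between the receptor genes and their flanks. The gene itself (688 measured, median 10.3%), the 5 kb before its start (846, 11.1%) and the 5 kb after its end (949, 12.5%) followed in this order. Pooled over all members, the bin of 1 kb just before the start was at 13.3% and the bin just after it at 13.8%, against 15.7% at 5 kb before, 20.7% at 4 kb after and up to 23.2% farther away. As a mean over genes, the bin after the start was at 15.2%, against 14.4% just before it, 15% at 5 kb before, 15.8% at 4 kb after and up to 17.8% farther away. Both bins beside the start were thus low in the pooled values. In the mean over genes, the bin after the start was no lower than the bin at 5 kb before. At other silent genes the same bins were at 7.55% and 6.42%, and at other genes of at least 1 RPKM they were at 4.48% and 4.24%, rising to 37% at 4 kb. Most receptor genes end within the first bins.

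**Figure D2:**
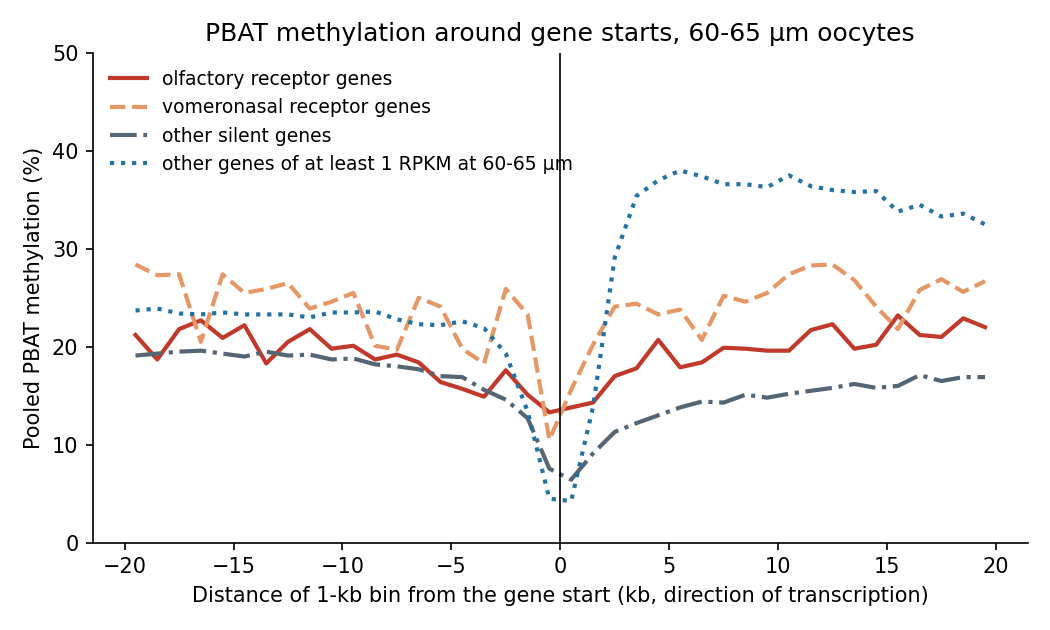
Pooled PBAT methylation (%, vertical axis) in bins of 1 kb by distance from the gene start (kb, horizontal axis, positive downstream) for olfactory receptor genes, vomeronasal receptor genes, other silent genes and other genes of at least 1 RPKM at 60–65 μm. Olfactory receptor genes stayed between 13.3% and 23.2%, while other expressed genes went from 4.24% at the start to 38% downstream.

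Most receptor regions had no other gene to share methylation with. Only 3 members overlapped a non-receptor gene of at least 0.5 RPKM at 60–65 μm, namely Olfr692 (Fam160a2, 51.3%), Olfr70 (Tmem8b, 28.5%) and Olfr56 (Ifi47, 11.3%), and the 1099 other measured members had a median of 12.3%. The median of the 3 was 28.5%, but at a limit of 0.1 RPKM there were 6 such members with a median of 13.5%, 1.25 points above the others. Other silent gene regions had a median of 14.9% over 2355 with such a gene and 7.74% over 7545 without. The 1004 members that overlapped no other gene had a median of 12.3%, with 148 at 25% or more. Olfr70 shows how such an overlap was laid out. Its gene was at 8.17% (465 calls) and the 5 kb before it at 9.87%, whereas the 5 kb after it, which hold coding exons of Tmem8b, were at 63.6%.

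Repeat sequence in the receptor arrays carried higher methylation than the rest. In repeat-masked sequence, which supplied 36.9% of the PBAT calls of the family, 21.2% of calls were methylated, against 13.5% in unmasked sequence. In the 786 members with enough calls of both kinds the medians were 14.1% and 10.7%, with the masked part higher in 458. At other silent genes the pooled values were 18.8% and 10.7%, with 14.2% of calls in masked sequence. Across the 1102 measured members, methylation level and the masked share of a region had a Spearman's rho of 0.164, and CpG density a rho of -0.0803. These describe regions of 1 library, some of which overlap each other (189 members).

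The 5 highest and 5 lowest members with at least 100 calls had no more than traces of RNA. Among members with at least 100 calls, Olfr1423 was highest with 71.9% (interval 64.8–78.1%, 171 calls), followed by Olfr1042 (69.5%), Olfr456 (69.3%), Olfr690 (68.1%) and Olfr248 (68%). For Olfr1423 the gene was at 76.1%, the 5 kb before at 70% and the 5 kb after at 65.3%, so the whole region was methylated. Olfr1423 was listed at 0 RPKM in all 9 columns, and the other members of this group did not exceed 0.0183 RPKM. Lowest were Olfr1079 (1.69%, interval 0.466–5.97%), Olfr65 (2.29%), Olfr418-ps1 (2.66%), Olfr9 (2.71%) and Olfr1275 (2.8%). Of these, Olfr1275 did not exceed 0.00932 RPKM and the other 4 were listed at 0 in all 9 columns. The nearest gene of at least 0.5 RPKM at 60–65 μm was 41.7 kb from Olfr1423 (Osbp) and 65.8 kb from Olfr9 (Bloc1s1).

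Receptors with known ligands or known uses in other tissues were within the range of the family. Olfr16 (MOR23, a receptor for lyral that is also found in sperm) was at 8.96%, Olfr73 (the eugenol receptor) at 15.6%, Olfr544 (an azelaic acid receptor) at 7.75% and Olfr78 (a receptor for short fatty acids, known from the carotid body) at 5.77%. Olfr2 (I7, an octanal receptor) was at 15.6%, Olfr17 (P2) at 8.05%, Olfr151 (M71, an acetophenone receptor) at 15.9% and Olfr1507 (MOR28) at 12.8%. None of these 8 reached 25% and the highest RNA level among them in any column was 0.0104 RPKM (Olfr2).

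The class I locus on chromosome 7 was slightly less methylated than the remaining family, with a median of 10% over 129 members against 12.5% over 973, and with 13 (10.1%) against 146 (15%) at 25% or more. By chromosome, the median ran from 8.57% (chromosome 15, 9 members) to 18.3% (chromosome 19, 63 members) among chromosomes with more than 5 members. Chromosome 19 also had the largest share at 25% or more among these, 23 of its 63 members (36.5%), against 34 of 285 (11.9%) on chromosome 2, 34 of 240 (14.2%) on chromosome 7 and 6 of 81 (7.41%) on chromosome 11.

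Neighbouring Olfr genes under 100 kb apart were joined into 79 clusters, of which 20 held a single gene and 42 held at least 5 members (1032 members in all). Gaps just inside that limit were 89.5 and 90.1 kb and just outside it 102 and 104 kb. With all calls from the first to the last member counted once, spaces between genes included, the median cluster was 20.2% methylated (range 10.1–36.7%), 9 of the 42 reached 25% and 11 held no member at 25% or more. The pooled level exceeded the median of the members in each of the 5 largest clusters. The largest, Olfr996–Olfr1272 on chromosome 2 (215 members, 73724 calls), was at 19.8% (interval 19.5–20.1%) with a median member of 13.1% and 25 members at 25% or more. The cluster Olfr151–Olfr986 on chromosome 9 (94 members) was at 20.8%, the class I cluster Olfr543–Olfr649 on chromosome 7 (93 members) at 16.1% with 2 members at 25% or more, Olfr9–Olfr827 on chromosome 10 (58 members) at 22.9%, and Olfr1444–Olfr1505 on chromosome 19 (41 members) at 30.5% with 12. Lowest were Olfr1416–Olfr12 on chromosome 1 (10.1%), Olfr288–Olfr279 on chromosome 15 (11%) and Olfr453–Olfr444 on chromosome 6 (11.6%). Highest were Olfr857–Olfr77 on chromosome 9 (36.7%, median member 16.8%), and Olfr24–Olfr836 on chromosome 9 and Olfr165–Olfr171 on chromosome 16 (both 32.6%). In Olfr24–Olfr836 the members themselves were methylated, 5 of 9 at 25% or more, whereas in Olfr165–Olfr171 only 1 of 7 was.

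**Figure D3:**
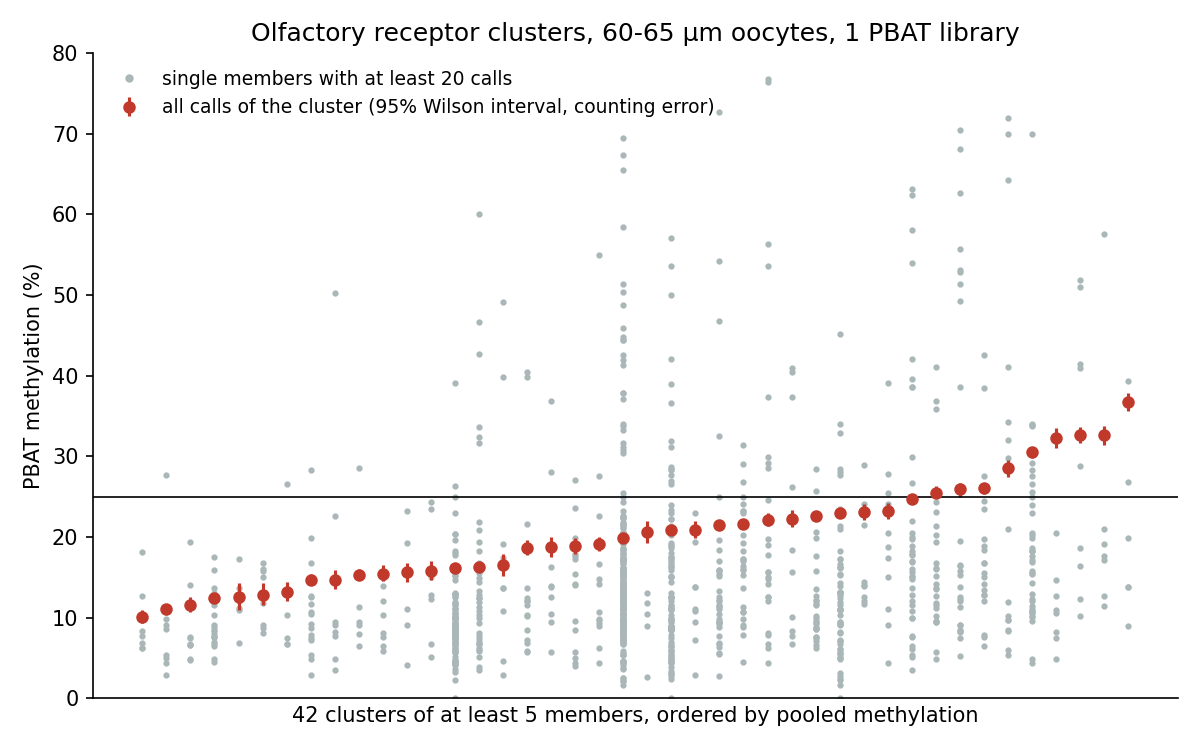
PBAT methylation (%, vertical axis) of the 42 clusters of at least 5 members, ordered by pooled level (horizontal axis), with single members in grey and all calls of a cluster in red with 95% Wilson intervals. Pooled levels run from 10.1% to 36.7%, while single members of 1 cluster spread from near 0 to above 60%, and the horizontal line marks 25%.

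Methylated members lay beside each other. For next neighbours of a cluster whose regions did not overlap (834 pairs), the levels had a Pearson's r of 0.355 and a Spearman's rho of 0.237. When the first of a pair was at 25% or more, 37.2% of the second were, and 11.2% otherwise. For the next but one they were 0.201 and 0.157, for members 5 places apart -0.000571 and 0.097, and for 10 places 0.0115 and 0.11. These pairs share a library and local base composition, so the values describe the arrays and carry no test. The 159 members at 25% or more formed 104 runs, of which 71 were single members, 20 were pairs and 13 held 3 to 5 members. Unlike the pairs above, runs could join members whose regions overlap and share calls, as with Olfr507 and Olfr508. The 3 runs of 5 were all on chromosome 7, at Olfr666–Olfr670 (45.7% over 68.1 kb), Olfr698–Olfr702 (46.5% over 74.3 kb) and Olfr473–Olfr478 (36.2% over 98.8 kb). Runs of 4 lay at Olfr689–Olfr692 (57.6%), which ends at the expressed gene Fam160a2, at Olfr111–Olfr114 on chromosome 17 (34.8%) and at Olfr1423–Olfr1426 on chromosome 19 (56.7%). No non-receptor gene of the table overlapped Olfr698–Olfr702, Olfr473–Olfr478, Olfr111–Olfr114 or Olfr1423–Olfr1426.

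Receptor RNA was almost absent from the oocytes. In all 9 columns 911 of 1103 members (82.6%) were listed at 0, against 72.9% of vomeronasal receptor genes and 20.6% of all genes, and 34 were above 0 in all 9. The values of members with 1 exon were whole read numbers in each library, and 3 reads on a gene of 1 kb correspond to 0.0151 to 0.0302 RPKM, so a value of 0 allows a level up to that of 3 reads. At least 0.1 RPKM in any column was reached by 36 members (53.8% of all genes) and at least 0.5 RPKM by 13 (43.2% of all genes). At 0.5 RPKM in both libraries, 8 members passed in 10–30 μm oocytes, 8 in 40–45 μm, 9 in 50–55 μm and 10 in 60–65 μm oocytes, and 12 passed in the GV library. By size class from the smallest, the summed RPKM of the family was 15.3 and 14.7, then 20.9 and 18.8, 22.7 and 21.6, 24.2 and 21.9, with 25.9 in GV. The sum was lowest in both 10–30 μm libraries. In pools of cells, a change in RNA per cell and a change in the share of cells of a type cannot be told apart.

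Olfr976 on chromosome 9 had the highest RNA level of the family. By size class its libraries were at 4.78 and 4.78 RPKM, 5.56 and 4.79, 6.67 and 6.39, then 8.71 and 6.7, with 8.65 in GV. Olfr206 on chromosome 16 was at 0.751 and 0.72, then 1.78 and 1.25, 2.3 and 1.94, 1.9 and 2.2, and 1.85 in GV. Both were lowest in the smallest oocytes, with no overlap between 10–30 and 60–65 μm libraries. Olfr847 (chromosome 9) went from 0.171 and 0.188 RPKM at 10–30 μm over 0.44 and 0.407, and 0.706 and 0.772, to 0.689 and 0.783 at 60–65 μm. Olfr513 (chromosome 7) went from 0.0974 and 0.108 over 0.293 and 0.242, and 0.448 and 0.598, to 0.716 and 0.648. The values of Olfr847 and Olfr513 separated 10–30 and 40–45 μm from all larger oocytes. Olfr1197 was highest at 40–45 μm, with 0.863 and 0.958 RPKM, 1.1 and 1.3, 1.01 and 0.958, then 0.745 and 0.778. Olfr1340 was at 0.646 and 0.635 RPKM, 0.994 and 1.1, 1 and 1.08, then 0.73 and 0.698, so that its intermediate classes were the highest and overlapped each other. Olfr701 was at 0.597 and 0.662 RPKM, 0.844 and 0.798, 0.829 and 0.827, then 0.791 and 0.732, with 0.641 in GV, so that the 10–30 μm libraries were the lowest of the growing oocytes and GV lay between them. Olfr819 and 2 rows named Olfr247 on chromosome 10, the other members of this group, are near copies. Both Olfr247 rows are identical over 963 bases and Olfr819 matches them at 956 bases (99.3%), so that their reads cannot be split with certainty and their levels (Olfr819 1.95 and 1.87 RPKM at 10–30 μm, 1.52 and 1.92 at 60–65 μm) are uncertain.

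**Figure D4:**
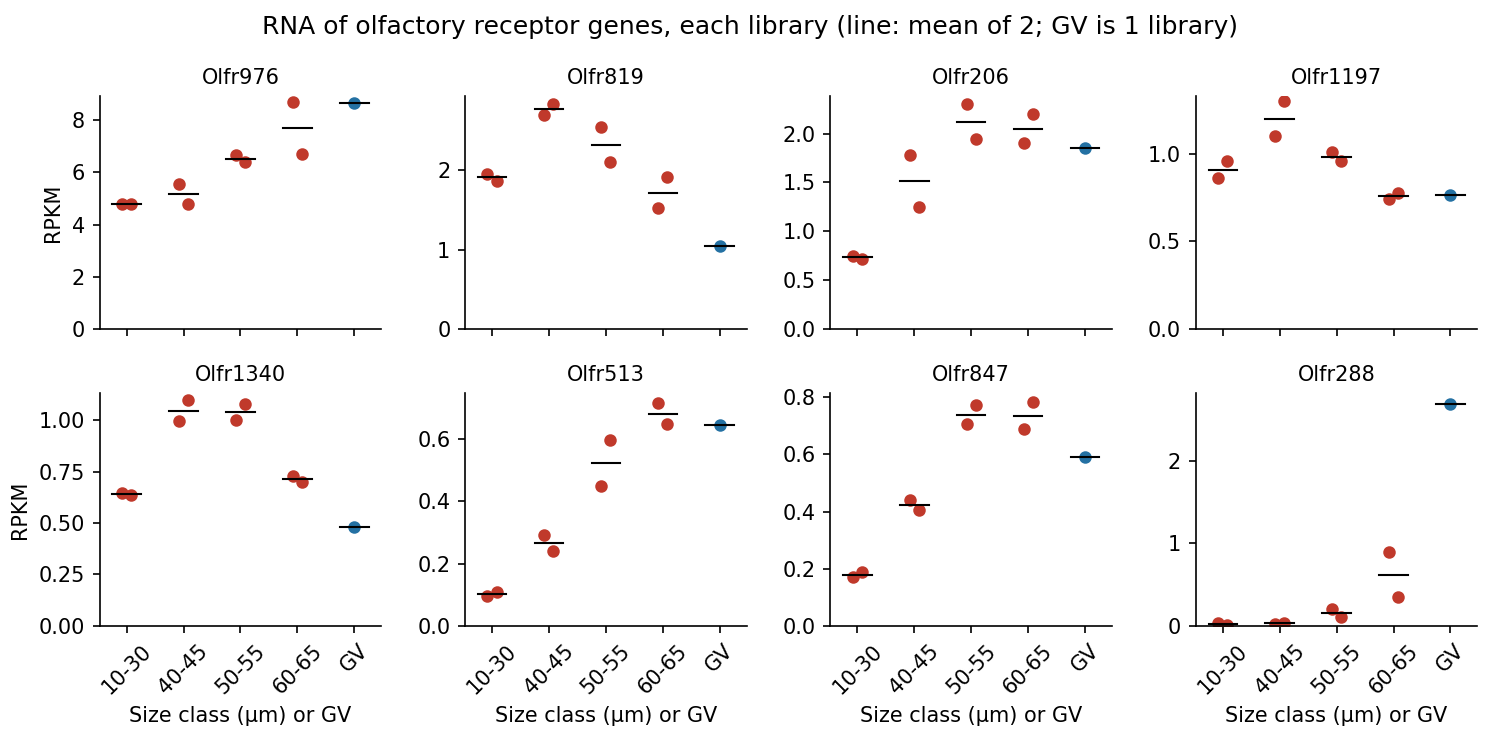
RNA level (RPKM, vertical axes) of 8 olfactory receptor genes in each library by size class (μm) or GV (horizontal axes), points for libraries, red for growing oocytes and blue for the single GV library, lines for means of 2. Olfr513, Olfr847 and Olfr206 are lowest at 10–30 μm, and Olfr288 reaches 2.68 RPKM in GV, against at most 0.889 in growing oocytes.

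Changes between size classes were tested with limma on log2(RPKM + 0.1) over 10518 genes of at least 0.5 RPKM in 2 of 8 libraries, among them 10 members of the family, and fold changes on this scale understate those of low genes. From 10–30 to 40–45 μm 8 of the 10 members, counting Olfr819 and 1 Olfr247 row that cannot be told apart, rose and none fell, where 14.9% of all tested genes rose and 8.59% fell (without scaling of the libraries, 6 members rose, and the split over all genes went from 1562 higher and 903 lower to 1088 and 1521). The largest rises were those of Olfr206 (log2 1.03 ± 0.181 SE, adjusted p = 0.00622) and Olfr847 (0.98 ± 0.126, adjusted p = 0.00185). Olfr976 (0.21, adjusted p = 0.315 in limma) did not pass. Without 40–45 μm library A, 5 members and 959 of 10513 genes were called, and without B 5 members and 1740 of 10507. From 40–45 to 50–55 μm 2 members passed, Olfr513 (0.72 ± 0.158, adjusted p = 0.0302) and Olfr847 (0.65 ± 0.126, adjusted p = 0.0217), where 8.87% of all genes passed (5.23% higher, 3.64% lower). No member was called without 40–45 μm library B or without either 50–55 μm library, and in these fits limma called 0, 0 and 253 genes in all, with 2180, 1679 and 2089 at an unadjusted p under 0.05. From 50–55 to 60–65 μm limma called 0 genes in all (0%), with 1450 genes (13.8%) and 4 members at an unadjusted p under 0.05, and these 4 (Olfr1340, Olfr1197, Olfr819 and 1 row of Olfr247) had lower values at 60–65 μm. With the library letters as a replicate block, limma called 230 genes in this step (149 higher, 81 lower), 1 member among them, Olfr1340, which was lower. Between 10–30 and 60–65 μm 4 members rose, Olfr513 (1.95 ± 0.158, adjusted p = 2.39e-05), Olfr847 (1.59 ± 0.126, adjusted p = 2.13e-05), Olfr206 (1.38 ± 0.181, adjusted p = 2.77e-04) and Olfr976 (0.69 ± 0.141, adjusted p = 0.003), and none fell, where 32.6% of genes rose and 30.8% fell. At an unadjusted p under 0.05 there were 5 members here, and 67.2% of all genes. Olfr513 and Olfr847 were under 0.5 RPKM in all 10–30 and 40–45 μm libraries and entered the test only through the larger classes where they were high, so that a rise was the only change open to them and their calls support nothing by themselves. The counts say nothing of members below the limit.

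Markers of other cells moved in these libraries too. The 11 oocyte markers summed to between 2647 and 3758 RPKM in every library, while 10 granulosa cell markers went from 2.13 to 2.55 at 10–30 μm to 7.23 to 7.86 at 60–65 μm and 9.7 in GV, with none at 0, and 3 endothelial markers from 0.544–0.582 to 4.23–4.74, mostly Pecam1. Nr5a2 gave most of the granulosa sum, with 1.29 and 1.73 RPKM at 10–30 μm and 4.81 and 4.6 at 60–65 μm. Foxl2 and Wt1 overlapped between these classes, and the other granulosa markers were higher at 60–65 μm. Theca and stroma markers summed to 2.03–2.76 at 10–30 μm and 0.915–0.94 at 60–65 μm. Col1a1 (1.63 and 1.16, then 0.4 and 0.241) and Col1a2 gave most of that fall. Dcn and Pdgfra were lower too, whereas Star, Cyp11a1 and Cyp17a1 were higher. Leukocyte markers stayed between 0.229 and 0.347. The 1 erythrocyte marker in the table stayed at or below 0.0817. The 6 markers of olfactory sensory neurons summed to 0.184–0.204 at 10–30 μm and 0.832–1.12 at 60–65 μm, with Rtp1 at 0 in every library. Of these sums, Cnga4 gave 0.122 in each 10–30 μm library and 1.02 and 0.785 at 60–65 μm. The part of other cells in the receptor RNA was not tested.

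Genes that serve receptor choice and signalling were followed through a list of 32 genes, of which 14 entered the limma test. Between 10–30 and 60–65 μm 9 rose, 3 fell and 2 did not pass, where 32.6% of all genes rose and 30.8% fell. Of the 9, Cnga4, Pde1c and Emx2 were under 0.5 RPKM in all 10–30 and 40–45 μm libraries and entered the test only through larger classes, so that only a rise was open to them, and without them 6 rose and 3 fell. From 10–30 to 40–45 μm 5 of the 14 rose (14.9% of all genes), from 40–45 to 50–55 μm 2 (5.23%) and in the last step 0 (0%), and none of the 14 fell. Among signalling genes, Cnga4, a subunit of the olfactory cyclic nucleotide-gated channel, went from 0.122 and 0.122 RPKM to 1.02 and 0.785 (log2 2.17, adjusted p = 1.15e-05 in limma), and Pde1c, a phosphodiesterase of olfactory cilia, rose by 1.32. The central parts of the cascade were nearly absent. Gnal, the olfactory G protein alpha subunit, did not exceed 0.00825 RPKM, Adcy3, the ciliary adenylyl cyclase, 0.0393, and Omp, the marker of mature olfactory neurons, 0.0411, and the receptor transporters Rtp1 and Rtp2 were listed at 0 in all 9 columns. Among regulators of receptor choice, Emx2 rose by 2.73 and Ldb1, the cofactor of Lhx2 at receptor enhancers, by 0.79. Lhx2 itself did not exceed 0.405 RPKM. Lbr, the lamin B receptor, rose by 0.81, Ddit3 by 1 and Eif2ak3 by 0.43, the last 2 being part of the unfolded protein response. Of the genes for histone H3 lysine 9 methylation, Ehmt1 rose by 0.41, while Ehmt2 fell by 0.53 and Cbx5, which binds that mark, fell by 0.32. Gnb1, a G protein beta subunit, fell by 0.64.

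Methylation of the gene was followed by RNA level. Over the whole region, the median was 19% for 36 members of at least 0.1 RPKM in any library, 15.6% for 156 above 0 and under 0.1 RPKM, and 11.8% for 910 at 0 in all 9 columns, with 13 (36.1%), 40 (25.6%) and 106 (11.6%) at 25% or more. Of all measured gene regions 32.7% were at 25% or more, and of other genes above silent 49.4%. Of the 13 members of at least 0.5 RPKM, 7 had 20 calls within the gene, with a median of 59.6% and 6 at 25% or more, where 37.1% of all genes measured in this way were. With the limit at 0.1 RPKM the median was 18.6% over 21 measured genes, 10 of them (47.6%) at 25% or more, and for members above 0 and under 0.1 RPKM it was 14.3% over 103, with 31 (30.1%). Among 564 measured genes at 0 in all columns the median was 9.72% and 63 (11.2%) were at 25% or more. The 5 kb before those 13 was measured in 11, with a median of 14.6% and 1 (9.09%) at 25% or more, against 11.5% of members at 0. The 5 kb after them was measured in 12, with a median of 18.9% and 5 (41.7%) at 25% or more, against 14% of members at 0. For the flanks no share over all genes is given here. Olfr976 was at 65.4% within the row of the table (104 calls), 17.8% in the 5 kb before it, which lie mostly inside the longer RefSeq gene, and 7.35% in the 5 kb after. Olfr1340 was at 60.4% within the gene, 14.6% before and 15.6% after. In Olfr1340 the gene was above both flanks. Olfr701 was at 59.6% within the gene, 23.8% before and 70.4% after, and Olfr513 at 27.3%, 5.56% and 38.2%. Olfr1197 was at 76.5% within the gene (34 calls), and its flanks had under 20 calls each. The other 2 of the 7 were Olfr283, at 42.7% within the gene (300 calls), 24.1% before and 18.7% after, and Olfr288, at 18.6% (435 calls), 11.1% and 4.44%. Olfr288 was the 1 of the 7 under 25%. The 7 genes were chosen by RNA alone, and RNA and methylation came from separate pools of oocytes. With 1 PBAT library these shares were not tested.

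RRBS gave 20 calls in all 6 libraries for 60 of the 1103 members, against 18467 of 24483 genes. Pooled over all member regions, the methylated share of calls in libraries A and B was 7.54% and 6.03% in 40–45 μm oocytes, then 16% and 9.98%, then 10.8% and 7.6% in 60–65 μm oocytes. The 50–55 μm library A stood apart from B, and at positions with 1 to 4 reads, of which it had 1635, it was at 67.4%, against 7.61% to 35.9% in the other libraries. Restricted to positions with at least 5 reads, the levels were 6.55% and 6.01%, 9.08% and 9.58%, and 9.99% and 7.45%. On this count both 50–55 μm libraries and both 60–65 μm libraries were above both 40–45 μm libraries, while 50–55 and 60–65 μm overlapped. Within the genes alone, at positions with at least 5 reads, the levels were 2.03% and 2.21%, 2.39% and 6.96%, and 5.23% and 4.84%. At any coverage the value for 50–55 μm library A within the genes was 8.42%, so it rested on thinly read positions. Libraries in groups of 2 cannot give a permutation p below 0.05, and no test was made of these sums.

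Of the 60 members, both 60–65 μm libraries were above both 40–45 μm libraries in 16 (26.7%), against 55.2% of all 18467 regions, and the median difference of class means was 0.903 points, against 1.09. The edgeR quasi-likelihood test on methylated and unmethylated calls was limited to regions whose average over the libraries reached 5%, which left 24 members among 5395 regions. Of these 24, both 60–65 μm libraries were above both 40–45 μm libraries in 5 (20.8%), against 8 of 24 (33.3%) tested vomeronasal receptor regions, 64.8% of other silent regions and 86.6% of all tested regions. From 40–45 to 50–55 μm 4 members rose, Olfr1419, Olfr70, Olfr474 and Olfr1417 (adjusted p = 0.00697, 0.00791, 0.021 and 0.0432), where 76.5% of all regions rose. Olfr1419, Olfr70 and Olfr1417 were under 5% in both 40–45 μm libraries and entered the test only through later classes, so that a fall was not open to them. Without 40–45 μm library B, 2 members and 3880 of 5958 regions were called, without 60–65 μm library A 2 and 3533 of 5001, and without B 2 and 3373 of 4858. The calls of Olfr1417 and Olfr474 in this step held under 4 of 10 and 5 of 10 alternative settings. From 50–55 to 60–65 μm no member passed in edgeR or at an unadjusted p under 0.05 (0 of each, and 2 with limma on the arcsine scale), where 15.4% of regions rose and 0.426% fell, and 42.3% had an unadjusted p under 0.05. This background depended on which library was left out. It vanished or nearly vanished without either 60–65 μm library or without 50–55 μm library B. It stayed without 50–55 μm library A and without either 40–45 μm library. Between 40–45 and 60–65 μm 3 members rose and none fell, where 79.9% of regions rose and 0.0556% fell. The same number, 3, had an unadjusted p under 0.05, against 80.4% of regions. For these, Olfr1419 had a log2 change of the odds of 5.35 (adjusted p = 3.49e-04), Olfr474 of 4.5 (adjusted p = 0.00182) and Olfr70 of 3.75 (adjusted p = 0.00231).

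The regions that rose did so by different amounts. Olfr474, in a run of methylated members on chromosome 7, went by size class from 11.3% and 3.02% over 36.1% and 41.7% to 64.5% and 59.6% (24 to 222 calls per library), and was at 63.1% by PBAT. Olfr70 was at 2.12% and 4.03%, 20.5% and 25.3%, and 29.9% and 31.4%, and at 28.5% by PBAT. Olfr1419 was at 1.82% and 0.0929%, 5.46% and 8.45%, and 19.1% and 22.7%, and at 29% by PBAT. In all 3 the classes followed each other without overlap. The stretch of Olfr70 in the coding exon of Tmem8b went from 1.52% and 6.09% over 54.9% and 44.2% to 66.7% and 62.3%. Olfr1417 was at 2.29% and 0%, 6.96% and 22.7%, and 0% and 4.55%, and at positions with at least 5 reads its 50–55 μm libraries were at 0% and 23%, so that its rise lay in library B alone. It was at 9.3% by PBAT.

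Other tested members were methylated at 40–45 μm already. Of the 24, 10 (41.7%) were at 15% or more in that class, counting Olfr507 and Olfr508, whose stretch is the same single CpG, against 4.69% of all 5395 tested regions and 9.99% of 1321 other silent regions, while among 24 tested vomeronasal receptor regions the share was 50%. Since regions averaging under 5% were not tested, weakly methylated members are missing from these shares. Of all 60 members with 20 calls in each library, 10 (16.7%) were at 15% or more at 40–45 μm, against 1.37% of 18467 regions. Olfr101 was highest, with 71.7% and 76.8% in the smallest class, 70.7% and 99.1% in the next, and 62.3% and 63.9% in the largest, while PBAT of the whole region gave 31.6%. Olfr1314 was at 23.4% and 40.1%, 36.8% and 27.7%, and 26% and 35.5%, and Olfr872 at 32.5% and 27.8%, 24.5% and 23%, and 24.5% and 29.2%. The libraries of the size classes overlapped in Olfr1314 and the 60–65 μm libraries of Olfr101 were the lowest of its 6, and none of these 3 passed the test in any contrast. Repeat-masked sequence made up 56.5% of the region of Olfr872, 78.4% of the stretch printed for Olfr101 and all of that for Olfr1314. In the 40–45 μm libraries, 15.4% and 14.6% of calls of the family were methylated in masked sequence and 4.48% and 3.05% in unmasked sequence. Region by region the masked part was higher in only 6 of the 17 regions with enough calls of both kinds in library A and in 7 of 16 in library B. The medians of the masked and unmasked parts were 7.69% and 8.61% in A, and 2.91% and 0.925% in B. At the other end, Olfr279, with the most RRBS calls of the family, stayed at or below 2.05% in all 6 libraries and was at 5.01% by PBAT.

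**Figure D5:**
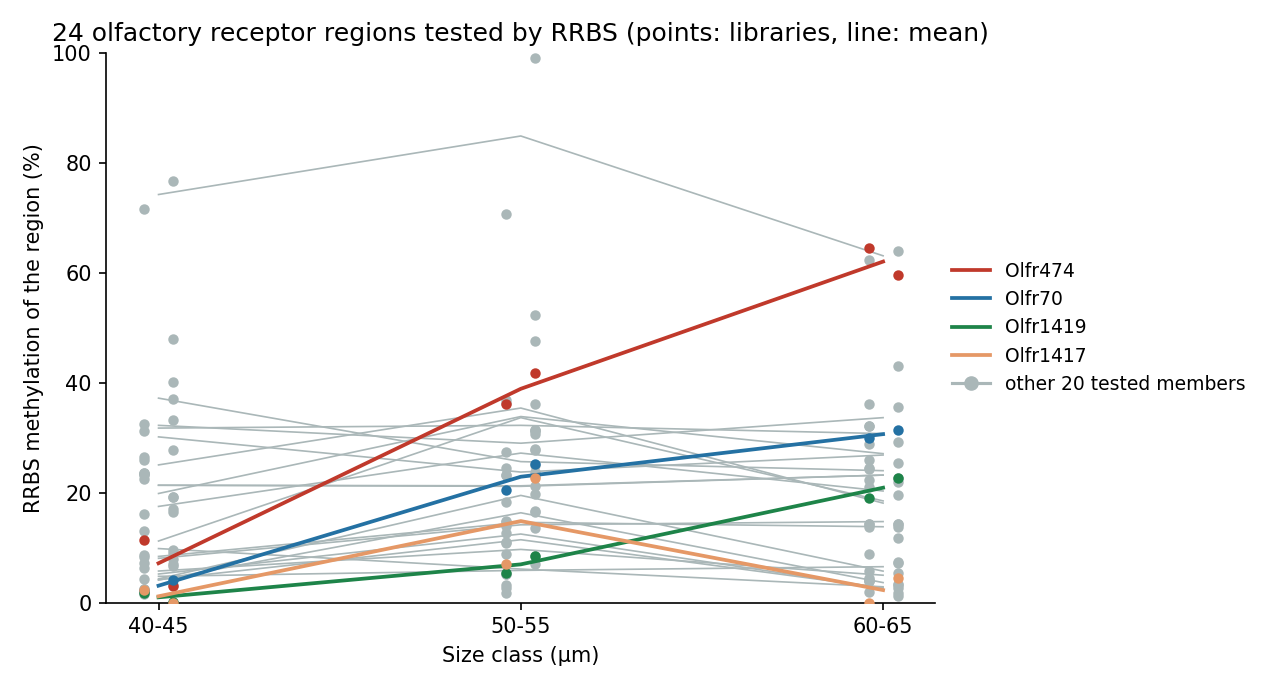
RRBS methylation of the region (%, vertical axis) by size class (μm, horizontal axis) for the 24 olfactory receptor regions tested, with points for libraries and lines joining class means, and the 4 regions called at 50–55 μm in colour. Olfr474, Olfr70 and Olfr1419 climb through all classes, Olfr1417 returns at 60–65 μm, and the grey line on top is Olfr101.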

How the data were processed

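The members, lists and tests were chosen with earlier results of these data known. For methylation, the authors trimmed reads with Trim Galore 0.3.5, aligned them to GRCm38 with Bismark (0.14.0 for RRBS, 0.10.0 for PBAT) and deposited, per CpG cytosine, the percent methylated with the counts of methylated and unmethylated calls. For RNA, they used Trim Galore 0.2.8 and TopHat 2.0.9 on strand-specific libraries and deposited RPKM per gene. Which step made this table is not given in the sources used here. Values of single-exon members were whole multiples of 1 read (within 0.05), which gives totals of 99400000 to 198300000 reads per library, rounded. Autosomal depth was 29275627 to 55938194 calls per RRBS library and 94501474 calls for PBAT.

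Calls were pooled per gene with 5 kb on each side (at least 20 calls), with 95% Wilson intervals. RNA was tested with limma 3.58.1 (trend, trimmed-mean scaling, pseudocount 0.1), RRBS with edgeR 4.0.16, both with Benjamini-Hochberg adjustment at 0.05 over all features. On simulated data limma called 72 of 100 genes changed by 1 on the log2 scale and 100 of 100 changed by 2, with 17 false calls among 10042 genes (60–65 against 10–30 μm). The changed genes were drawn only from those averaging above 1 on the log2(RPKM + 0.1) scale. Most tested members of the family lay below that, so these rates do not cover them. For simulated RRBS, edgeR called 135 of 200 regions raised by 30 points, with 4 false, among 5395. Named genes were the 5 highest and 5 lowest PBAT regions with at least 100 calls, the 10 highest mean RPKM and 3 highest in GV, members with the smallest adjusted p in limma, those called in RRBS, the 5 with most RRBS calls, well-studied members, and the largest, highest and lowest clusters. Olfr101, Olfr1314, Olfr872, Olfr283 and the runs of neighbours were picked after their values were seen.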

Additional observations from a re-analysis of the deposited data

Results flagged for a closer look

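The GV library has no replicate and entered no comparison. In it, 2 members reached at least 0.5 RPKM and more than 1.5 times their highest growing library. Olfr288, at the end of the chromosome 15 cluster, was at 2.68 RPKM in GV. In growing oocytes, by size class from the smallest, its libraries were at 0.0353 and 0.00979 RPKM, 0.0233 and 0.0407, 0.199 and 0.106, then 0.889 and 0.346. Olfr877 was at 0.749 RPKM in GV, and at 0.0323 and 0.0134, 0.0213 and 0.0447, 0.145 and 0.131, then 0.417 and 0.236 RPKM in growing oocytes. Neither GV value has a replicate check.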

How the results depend on the processing

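Limits come first from depth: 1 PBAT library has no replicate error, and RRBS reached 60 members. With the gene alone, the median PBAT level was 10.3% and 104 of 688 genes were at 25% or more, and at a limit of 50% there were 44 regions. A minimum of 50 calls and flanks alone moved neither the median nor the count at 25% beyond its spread. Means over positions gave 141 of 727 regions at 25% or more (19.4%). Joining members under 50 kb apart kept the median cluster at 20.2%, but gave 71 clusters of at least 5, a highest level of 49% and 23 with no member at 25%. At 0.1 RPKM, members with and without an expressed gene differed by 1.25 points in place of 16.2, and at 2 RPKM no member overlapped one. At 0.1 and 1 RPKM, 36 and 8 members were detected. With a filter at 0.1 RPKM, limma called 15 (1 lower), 6 (1 lower) and 15 (2 lower) members (40–45 against 10–30, 50–55 against 40–45 and 60–65 against 10–30 μm), of 26 tested, with 3045, 1162 and 8354 of 13134 genes, and with no filter 33 of 177 members (27 higher, 6 lower) and 9315 of 20052 genes in the last. With the letters as replicate block it called 1 member (lower) and 230 genes from 50–55 to 60–65 μm, where the fit without it called 0 of either, and the count over all genes from 40–45 to 50–55 μm went from 933 to 1909. Deviations of same-lettered RNA libraries correlated at 0.59 to 0.67 among the 3 smaller classes and at -0.23 to 0.11 with 60–65 μm, and those of RRBS at 0.08, so the letters were not taken to pair the libraries over all classes. The block left the other RNA member counts as they were, and in RRBS it called 3 members in place of 4 from 40–45 to 50–55 μm and as many as before in the other contrasts. Leaving out 1 library in turn gave 5 to 8, 0 to 2 and 4 to 5 members in the 3 contrasts named before, with 959 to 2824, 0 to 1624 and 4823 to 6663 genes (the fifth member, without 10–30 μm library B, was lower, and for 50–55 against 40–45 μm, 1 without either 60–65 μm library and 0 without 40–45 μm B or either 50–55 μm library). In RRBS it gave 2 to 6 (50–55 against 40–45 μm) and 0 to 1 (60–65 against 50–55 μm, with 1 member higher without either 40–45 μm library and 1 lower without 50–55 μm library A). Without a minimum of methylation, 2 of 60 members and 4213 of 18467 regions were called from 40–45 to 50–55 μm, and 0 members and 1 region in the next step. On the arcsine scale these were 6 of 24 members and 3671 of 5395 regions, then 2 members and 1935 regions. The pooled RRBS difference of 50–55 minus 40–45 μm was 6.23 points, 3.2 without 50–55 μm library A and 3.05 at positions with at least 5 reads, and that of 60–65 minus 40–45 μm was 2.41, 0.812 without 60–65 μm library A and 4 without B. The causes were not tested. The restriction of the edgeR test to at least 5 reads, and its combination with leaving out 50–55 μm library A, were chosen after seeing the data.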
